A study of Mus musculus with 60 samples.

Results

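Motor proteins and the neuronal cytoskeleton were examined in the striatum of 60 HS-CC mice, an outbred stock formed from 8 inbred strains. The members were chosen by name. They were the genes of the deposited gene table whose symbol starts with Kif and a digit, Klc, Dync, Dctn, Tuba, Tubb or Tubg, together with the microtubule-associated proteins and neurofilaments listed in the selection rule. The rule found 51 of the 9066 genes, with 1080 of the 114691 exon rows. They comprised 18 kinesin heavy chains, 3 kinesin light chains, 7 cytoplasmic dynein subunits, 6 dynactin subunits, 1 alpha tubulin (Tuba4a), 2 beta tubulins (Tubb3 and Tubb4a), 6 genes of the gamma tubulin complex (Tubg2 and Tubgcp2 to Tubgcp6), 6 microtubule-associated proteins and 1 neurofilament (Nefm). The prefix also caught Kif1bp, which encodes a kinesin-binding protein and not a kinesin. Nefl, Nefh, Tuba1a, Tubb2a, Tubb5, Tubg1 and Map1s were not analysed here.

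One polyA RNA-seq library was made per mouse from hand-dissected striatum. The mice descended from generations bred selectively for their response to haloperidol, an antipsychotic drug that can induce catalepsy, a state of immobility. GEO labels each mouse as a responder or a non-responder for catalepsy. Non-responders comprised 13 females and 17 males, and responders 15 females and 15 males. The labels state no drug treatment of the mice. Age, genotype and descent from the founder strains were not used here, so relatedness between mice was not part of any test. Recovered reads per mouse ranged from 4913122 to 21872744, with a median of 14520042, and 17 mice had fewer than 10000000. Of 10 marker genes of striatal projection neurons 8 were measured, among them Drd2, Ppp1r1b and Penk, with summed values between 57967 and 137889 over the mice.

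Kinesins and cytoplasmic dynein are the motors of microtubule transport in axons and dendrites. Most kinesins carry vesicles, mitochondria and mRNA granules towards the growing ends of microtubules, away from the cell body, and dynein, with its cofactor dynactin, carries cargo back. Alpha and beta tubulin form the track, the gamma tubulin complex nucleates it, and proteins such as MAP2 in dendrites and tau (Mapt) in axons bind and stabilise it. Neurofilaments fill the axon and set its calibre. Striatal projection neurons send long axons to the pallidum and midbrain and also receive axons from the cortex, whose mRNA stays largely in the cortical cell bodies.

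The exon results below turn on 3 coding exons, the pair with the smallest p in the responder comparison and the one whose log2 share, with 3′ bias removed, had the highest SD among member rows averaging at least 50. Each is printed as mRNA sense, with the exon in capitals and 20 bases of each neighbouring exon in lower case, from the GENCODE M21 transcripts on GRCm38. The exon counts themselves were made on NCBI m37, and rows were matched to exons by the spacing of their starts.
Kif1a exon 26 of 49, chr1:93052424-93052561, minus strand, 138 bases: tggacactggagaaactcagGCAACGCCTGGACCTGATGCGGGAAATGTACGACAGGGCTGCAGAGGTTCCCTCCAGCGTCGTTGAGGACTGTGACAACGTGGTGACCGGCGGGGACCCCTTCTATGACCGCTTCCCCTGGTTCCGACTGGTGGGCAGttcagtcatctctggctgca
Dync1h1 exon 41 of 77, chr12:110642011-110642176, plus strand, 166 bases: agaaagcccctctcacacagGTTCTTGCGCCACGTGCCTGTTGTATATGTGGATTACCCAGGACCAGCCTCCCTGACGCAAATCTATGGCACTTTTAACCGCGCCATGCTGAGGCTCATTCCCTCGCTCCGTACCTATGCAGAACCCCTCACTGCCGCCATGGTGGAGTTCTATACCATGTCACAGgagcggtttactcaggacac
Kif5a exon 3 of 29, chr10:127248030-127248103, minus strand, 74 bases: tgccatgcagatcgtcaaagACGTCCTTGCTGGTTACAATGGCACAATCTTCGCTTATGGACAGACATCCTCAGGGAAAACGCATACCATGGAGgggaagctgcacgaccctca

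The rows for these exons start at 94949001, 111880221 and 126685086 in NCBI m37. All 3 exons are coding, and their shares of the gene's exon count by mouse are given below.

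Levels are given as normalised counts, the authors' read counts multiplied by an upper quartile factor per library. Between genes they were compared only per kilobase of annotated exon. Counts were not even along that length. Exons under 75 bases were hardly counted, and the last exon row held 96.6% of the exon count in Tubb3 but 4.71% in Dync1h1. The order below is thus one of counts per kilobase, and its relation to transcript number was not tested. On that scale Kif5a, the neuronal heavy chain of conventional kinesin, was the highest member, at 8314 ± 1818 per kilobase (SD, n = 60). Kif5a lies at chr10:127225696-127263348 of GRCm38, on the minus strand. The other neuronal conventional kinesin, Kif5c, followed among the heavy chains at 3761 ± 453, and Kif1a, which carries synaptic vesicle precursors, stood at 2257 ± 269. Kif5b, the form found in most cell types, was at 541.5 ± 112 per kilobase. Kif1b, which carries mitochondria and synaptic vesicle precursors, was at 957.6 ± 136, and the 2 motor subunits of heterotrimeric kinesin-2, Kif3a and Kif3b, were at 515.3 ± 86.9 and 364.7 ± 56.1. The lowest heavy chains were Kif26b at 11.9 ± 4.28 and Kif24 at 6.45 ± 3.06. Among the light chains, which link conventional kinesin to its cargo, Klc1 was at 1922 ± 232 per kilobase, Klc2 at 674 ± 137 and Klc4 at 108 ± 11.

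Among the dynein subunits, the light intermediate chain Dync1li2 was at 929.7 ± 118 per kilobase and the heavy chain Dync1h1, which holds the motor, at 676 ± 202. The spreads of these neighbours overlapped. The intermediate chain Dync1i1 was at 337 ± 73.4 and Dync1i2 at 210.0 ± 20.6. The heavy chain of the ciliary dynein, Dync2h1, was far lower, at 57.2 ± 18.8 per kilobase. Dynactin subunits were led by Dctn3 at 641 ± 115, Dctn1 (p150-Glued, which binds dynein and the microtubule) at 627 ± 92.0 and Dctn2 (dynamitin) at 437 ± 67.7, and the spreads of Dctn3 and Dctn1 between mice overlapped.

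Of the tubulins measured, Tubb4a, which oligodendrocytes and neurons both use, was at 5237 ± 1098 per kilobase, Tubb3, the neuronal isotype, at 2386 ± 515 and Tuba4a at 409 ± 77.0. The gamma tubulin complex was low throughout, with Tubg2 at 186 ± 23.9, Tubgcp2 at 121 ± 15.9 and Tubgcp3 at 78.7 ± 7.27. Among microtubule-associated proteins, the order was Map1a (3696 ± 621), Map2 (2334 ± 367), Map1b (1416 ± 433), Mapt (1345 ± 127), Map4 (678 ± 75.2) and Map6 (265 ± 37.2), and the spreads of Map1b and Mapt between mice overlapped. Differences between genes were not tested. Nefm was at 621 ± 186 per kilobase. Reads of near-identical tubulin and Kif5 paralogs can be split or lost in counting, and how the authors treated them is not given in the sources used here.

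**Figure D1:**
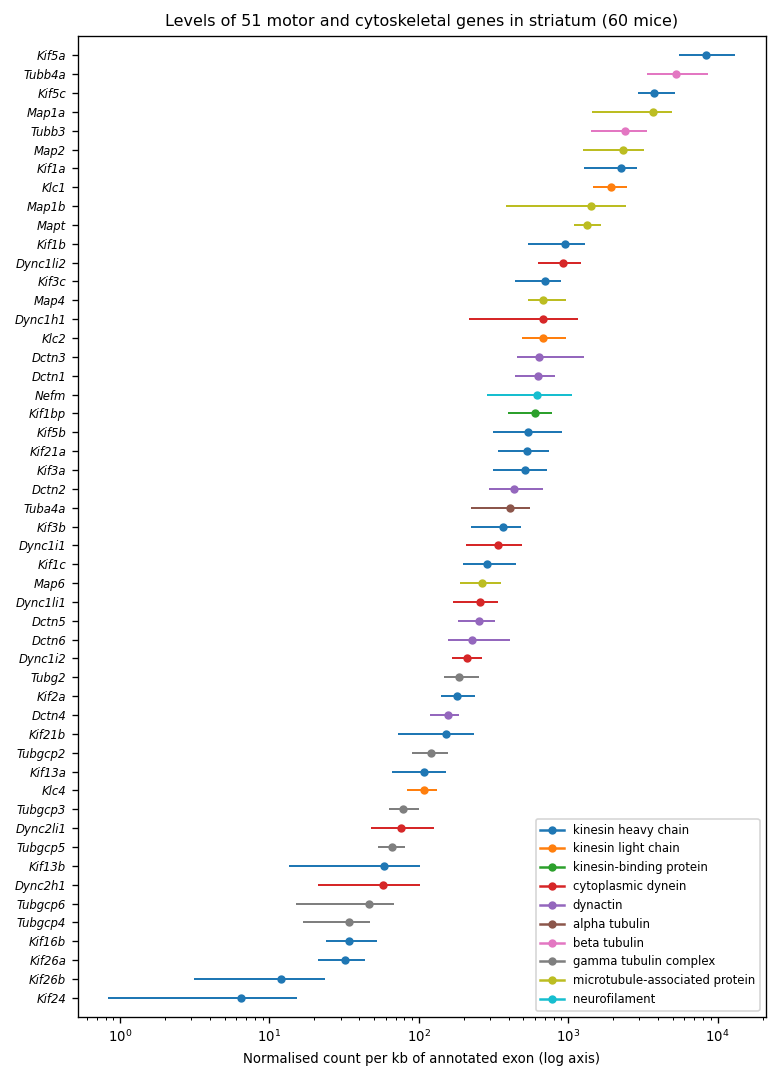
Normalised count per kilobase of annotated exon for each of the 51 genes over 60 mice, on a log axis. Points are means, lines run from the lowest to the highest mouse, and colour marks the family. The members run from 6.45 for Kif24 to 8314 for Kif5a, and the lines of Map1b and Dync1h1 are several times longer than that of Mapt.

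The members differed in how much they varied between mice. Their median coefficient of variation was 0.156, against 0.163 for all 8535 genes averaging at least 10. Among members averaging at least 500, the most variable were Dync2h1 (0.328), Map1b (0.306), Nefm (0.30), Dync1h1 (0.298) and Kif13b (0.258). The steadiest were the dynactin subunit Dctn4 (0.0806), Tubgcp5 (0.0863), Tubgcp3 (0.0925), Mapt (0.0947) and Dync1i2 (0.0980). Nefm had values of 1673, 3316 and 6017 as its lowest, median and highest. Dync1h1 had 3462, 10409 and 17814. Map1b had 6147, 23050 and 38255. The tau gene Mapt, by contrast, stayed between 8397 and 12346, with a median of 10007. Thus within the set of proteins that bind microtubules, the value for Map1b spanned 6.22-fold and that for Mapt 1.47-fold over the same libraries. The lowest Map1b values, 6147 to 9246, came from mice 63, 62, 5 and 4, and the next was 12494, in mouse 28.

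Single libraries set many of these extremes. Mouse 63, a female responder, was the lowest of the 60 for 20 members, among them Kif5a, Map1a, Map1b, Map2, Kif1a and Dync1h1, and the highest for 7 members, among them Dctn2, Dctn3 and Dctn6. This library had the largest 3′ bias, a measure of how far its exon counts lean towards the 3′ ends of genes, at 1.48 against a median of -0.019 over the mice. Mice 5, 4 and 62, which with mouse 63 held the lowest Map1b values, came next, at 0.907, 0.683 and 0.477. Mouse 42, a male non-responder with 5047110 reads, was the lowest for 10 members and the highest for 4. Mouse 42 belonged to a run of libraries, mice 41 to 56, with the lowest 3′ bias of all mice, from -0.316 to -0.170. The next value was -0.159, in mouse 22. These libraries were also shallow, with 4913122 to 9507322 reads. Among the other mice only mouse 26 (8271156) had fewer than 12051239. Dync2h1 ran from 1006 to 1631 in mice 41 to 56 and from 353.4 to 1147 in the others. Depth and 3′ bias thus coincided in this run, and their separate parts were not tested. Without mouse 63 the coefficient of variation was 0.289 for Map1b, 0.284 for Dync1h1 and 0.297 for Nefm, and the median over members was 0.146, against 0.154 for all genes.

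Exon counts also depended on exon length. Rows matched to coding exons of under 75 bases had a median count per base of 0% of that seen for exons of 150 bases or more in the same gene, and 77 of 125 such rows averaged under 1 count. The median was 26.8% for exons of 75 to under 100 bases, 56.4% from 100 to under 125 bases and 79.1% from 125 to under 150 bases. Short exons of the members were thus hardly counted. In 15 of the 51 genes the last exon row held over 50% of the exon count, reaching 96.6 ± 0.611% in Tubb3 (SD, n = 60), 92.6 ± 1.12% in Tubb4a and 89.3 ± 1.90% in Mapt. In Map2 the last row held 46.5 ± 9.14%, and in mouse 63 it reached 89.1%.

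**Figure D2:**
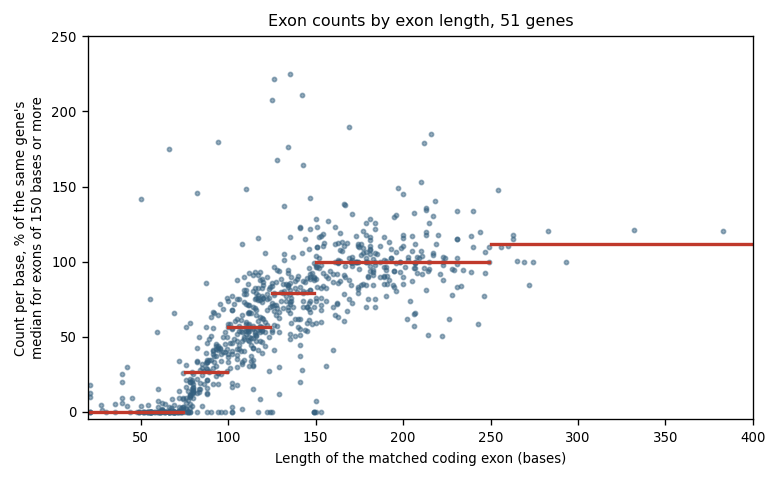
Count per base of 825 coding exon rows of up to 400 bases against exon length, as a percentage of the same gene's median for exons of 150 bases or more. Red lines are medians per length class, which climb from 0% under 75 bases to 100% at 150 to under 250 bases, and 12 rows above 250% lie outside the axis.

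The responder comparison asked whether mice that differed in catalepsy differed in striatal levels of these genes. No member passed an adjusted p of 0.05 (limma on log2(value + 1) with sex as a covariate, two-sided, Benjamini-Hochberg over 8535 genes). Over all genes 9 passed, which is 0.105%. At an unadjusted p of 0.05 there were 2 members (3.92%), against 554 genes (6.49%). For 47 of the 51 members the 95% interval of the log2 difference lay within 0.3 either way, and for 50 within 0.5, the exception being Kif24. The median log2 difference, responders minus non-responders, was -0.0145 over the members and -0.0033 over all genes. The fitted difference was below 0 for 35 members and above 0 for 16.

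Dctn5, a subunit of the pointed end of dynactin, came nearest. Its lowest, median and highest values were 490.0, 722.5 and 843.7 in non-responders and 511.6, 608.4 and 821.6 in responders. The ranges overlapped almost fully, but the median of the responders was lower in both sexes, at 602.7 against 751.1 in females and 611.2 against 710.1 in males. The log2 difference was -0.16 (SE 0.05, 95% interval -0.25 to -0.07, adjusted p = 0.171 by limma). With the 3′ bias of the library as a further covariate it was -0.17, with an adjusted p of 0.0211 by limma, and this was the only gene-level fit in which a member passed. Leaving out each mouse in turn gave adjusted p-values from 0.0689 to 0.246 by limma.

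Kif3b was the other member with a small unadjusted p. It had 1506, 2196 and 2666 in non-responders and 1278, 2010 and 2602 in responders, a log2 difference of -0.13 (SE 0.06, 95% interval -0.24 to -0.01, adjusted p = 0.682 by limma). Its partner Kif3a had 1402, 1893 and 2540 against 1149, 1756 and 2470, with a log2 difference of -0.10 (SE 0.06, 95% interval -0.22 to 0.03). The remaining members among the 8 of smallest p were Dync2li1 (-0.11), Kif24 (-0.32), Dctn6 (-0.10), Map4 (0.06) and Kif21b (-0.10), with adjusted p-values of 0.850 or more by limma. Kif24 had 19.4, 51 and 121 in non-responders and 6.76, 41.8 and 94.0 in responders, the lowest counts of any member.

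The abundant members were close to equal between the groups. Kif5a had 41613, 57925 and 90500 in non-responders and 38922, 54473 and 81780 in responders, a log2 difference of -0.10 (SE 0.08, interval -0.26 to 0.06). Kif1a differed by 0.01 (SE 0.05), Kif1b by 0.00 (SE 0.06), Klc1 by -0.04 (SE 0.05), Dync1h1 by -0.02 (SE 0.12), Dctn1 by -0.01 (SE 0.06), Map2 by 0.03 (SE 0.06) and Mapt by 0.03 (SE 0.04) on the log2 scale. Nefm had 1926, 3262 and 5663 against 1673, 3364 and 6017, a log2 difference of 0.00 with an interval from -0.22 to 0.22. For Map1b and Dync1h1, whose spread between mice was wide, the intervals reached -0.33 to 0.22 and -0.27 to 0.22.

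By family, 12 of the 18 kinesin heavy chains, all 3 light chains, 6 of 7 dynein subunits, 4 of 6 dynactin subunits, both beta tubulins and 4 of 6 gamma tubulin complex genes had fitted differences below 0, and 4 of 6 microtubule-associated proteins above 0. None of these differences passed the test. The median over all genes was also below 0, at -0.0033, against -0.0145 over the members. Members measured in the same libraries are not independent, so these counts only describe direction. The 3′ bias had a median of -0.027 in non-responders and 0.005 in responders, and with it as a covariate Dctn5 was the 1 member that passed. Among markers of other cells, all 6 oligodendrocyte genes measured of 7 had fitted differences above 0 (median log2 difference 0.08, smallest adjusted p = 0.912 by limma), as did all 4 microglial genes (median 0.06), and the 1 endothelial gene, Flt1 (0.11, SE 0.06), against 2 of 5 astrocyte genes (median -0.02) and 2 of 8 genes of striatal projection neurons (median -0.02). The cortical neuron marker Tbr1 had a log2 difference of -0.09 (SE 0.19). None was called, and their part was not tested. In bulk tissue, fewer cells of a type and less RNA per cell cannot be told apart.

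**Figure D3:**
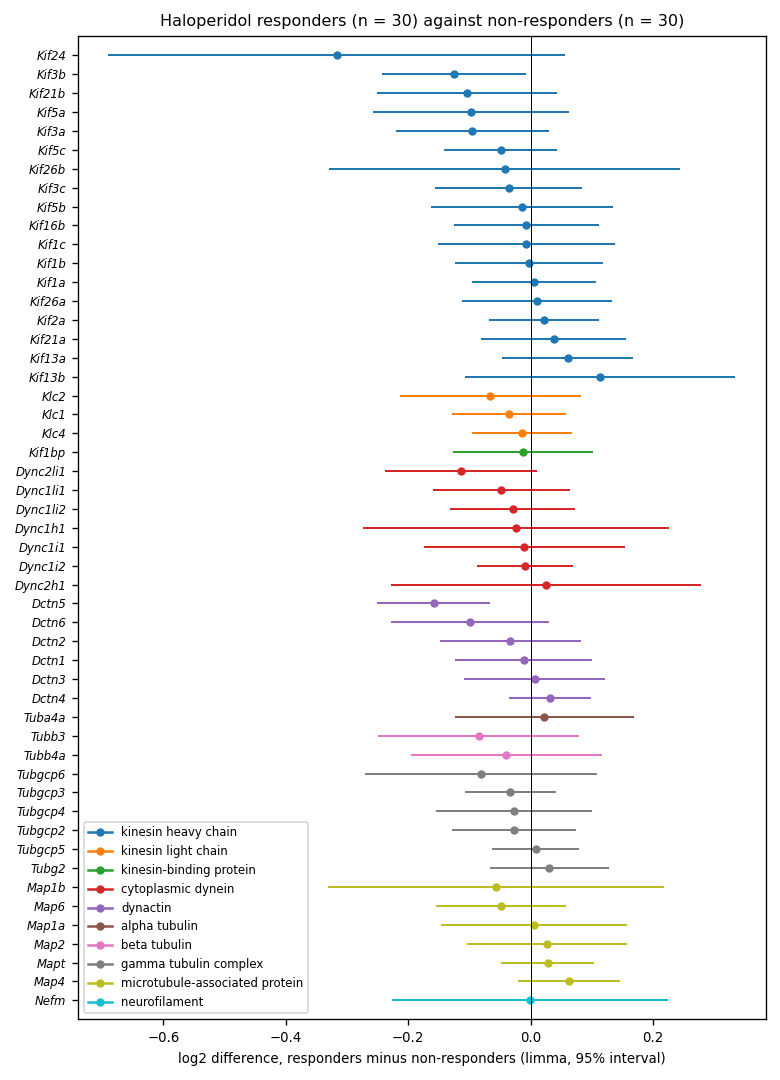
Log2 difference between 30 responders and 30 non-responders for each member, with its 95% interval from limma. Points left of 0 are lower in responders, and colour marks the family. Only the intervals of Dctn5 and Kif3b lie wholly on one side of 0, and that of Kif24 is the widest, from -0.69 to 0.05.

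Between the sexes no member passed either (3 of 8535 genes, 0.0351%, by limma), and at an unadjusted p of 0.05 there was none, against 2.04% of all genes. The smallest p belonged to Dctn5, with a log2 difference, males minus females, of -0.08 (SE 0.05), followed by Kif3a (-0.09, SE 0.06) and Map2 (-0.09, SE 0.06). Nefm had the largest difference, at -0.14 (SE 0.11, 95% interval -0.37 to 0.08). Whether the responder difference itself depended on sex was tested as an interaction. No gene passed (0% of 8535 by limma, with 48 at an unadjusted p of 0.05 and 0 by edgeR and DESeq2), and no member had an unadjusted p of 0.05. The intervals were wider here, and 45 of 51 lay within 0.5 either way.

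Other genes of the pathway were described from lists of adaptors, microtubule regulators and related proteins. In the responder comparison 0 passed of 18 motor adaptors and regulators, 17 regulators of microtubule dynamics, 13 tubulin folding and modification genes, 3 other intermediate filament genes and 6 unconventional myosins (limma). Over all 8535 genes 0.105% passed. At an unadjusted p of 0.05 there were 2 of the listed genes, against 6.49% of all genes. The 2 were Nde1, a dynein regulator, with a log2 difference of 0.18 (SE 0.07, adjusted p = 0.510 by limma), and Agbl4, which trims glutamates from tubulin tails, at -0.20 (SE 0.09, adjusted p = 0.692 by limma). The list medians lay between -0.03 and 0.03.

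Exon usage was compared in the same groups. A row's usage is its log2 value relative to the other rows of its gene, tested with limma diffSplice on rows averaging at least 10. Of 707 member rows 1 passed in the responder comparison, against 88 of 66690 rows (0.132%), a share close to that of the member rows, and none passed between the sexes (6 of 66690, 0.00900%). At an unadjusted p of 0.05 there were 10 member rows (1.41%) in the responder comparison, against 2.5% of all rows. diffSplice shares 1 estimate of the spread among the rows of a gene, whatever a single row's own spread is. Each row was therefore also tested with its own spread (limma on the log2 share of the gene). There 0 member rows and 15 of 66690 rows (0.0225%) passed. At an unadjusted p of 0.05 this test had 22 member rows (3.11%), against 4.81% of all rows. Combining the rows of each gene by Simes' method, 1 member (Kif5a, adjusted p = 0.0065 by limma diffSplice) passed, against 93 of 7549 genes (1.23%).

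The row that passed was exon 3 of Kif5a, part of the coding sequence, 74 bases long and thus in the range where hardly any reads were counted. It averaged 26.9 counts in a gene averaging 58112. Its count had a lowest, median and highest value of 0, 22 and 57 in non-responders and 5, 28.5 and 68 in responders. The usage was higher in responders by 0.58 on the log2 scale (SE 0.12, adjusted p = 0.0034 by limma diffSplice), and the ranges overlapped. With the row's own spread the difference was 0.56 (SE 0.25, adjusted p = 0.954 by limma), and with a pseudocount of 10 the adjusted p was 0.412 by limma diffSplice. The row passed without mouse 63 (0.60, adjusted p = 3.89e-05), without mice 63, 5, 4 and 62 (0.61, adjusted p = 2.34e-05), with 3′ bias as a covariate (0.61, adjusted p = 3.92e-05), in the 43 mice of over 10000000 reads (0.79, adjusted p = 0.00059) and with no filter (0.58, adjusted p = 0.00509), all by limma diffSplice. The lowest counts, 0 in mouse 33 and 1 in mouse 18, both male non-responders, were kept in every fit above. Their part in the difference was not tested. The log2 share of this row had an SD of 0.98 over the mice, against a median of 0.24 over the 19 other rows of the gene averaging at least 50.

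Exon 41 of Dync1h1, in the heavy chain that contains the dynein motor, was the second smallest p. Its share of the gene's exon count had a lowest, median and highest value of 0.182, 0.894 and 1.13% in non-responders and 0.144, 0.546 and 1.11% in responders. The widest gap between neighbouring mice, with at least 3 mice on each side, lay between 0.414 and 0.522%, or 0.33 on the log2 scale. Below it were 13 of 30 responders and 3 of 30 non-responders, counts read after the values were seen and given without a test. The log2 difference in usage was -0.67 (SE 0.20, adjusted p = 0.229 by limma diffSplice), and with the row's own spread -0.69 (SE 0.17, adjusted p = 0.231 by limma). The difference passed without mouse 63 (-0.67, SE 0.16, adjusted p = 0.0238), without mice 63, 5, 4 and 62, the libraries of largest 3′ bias (-0.71, SE 0.12, adjusted p = 5.92e-06), and with 3′ bias as a covariate (-0.67, SE 0.11, adjusted p = 4.46e-06), all by limma diffSplice. It did not pass in the 43 mice of over 10000000 reads (-0.72, SE 0.25, adjusted p = 0.801). Exons 40 and 42 on either side had SDs of the log2 share of 0.23 and 0.27, against 0.76 for exon 41.

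Exon 26 of Kif1a varied most of all member rows averaging at least 50 once 3′ bias was removed. Its count averaged 199, and its share ran from 0.108 to 1.65% with a median of 1.03%. In 5 mice the share was 0.256% or lower, and in all others 0.550% or higher. Of these 5, 4 were non-responders and 1 was the responder mouse 63. The neighbouring exons 25 and 27 had SDs of the log2 share of 0.32 and 0.28, against 0.87 for exon 26. The responder difference in usage was 0.28 (SE 0.13, adjusted p = 1.00 by limma diffSplice), and 0.33 (SE 0.08, adjusted p = 0.0225) without mice 63, 5, 4 and 62. With the row's own spread it was 0.23 (SE 0.22, adjusted p = 1.00 by limma).

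**Figure D4:**
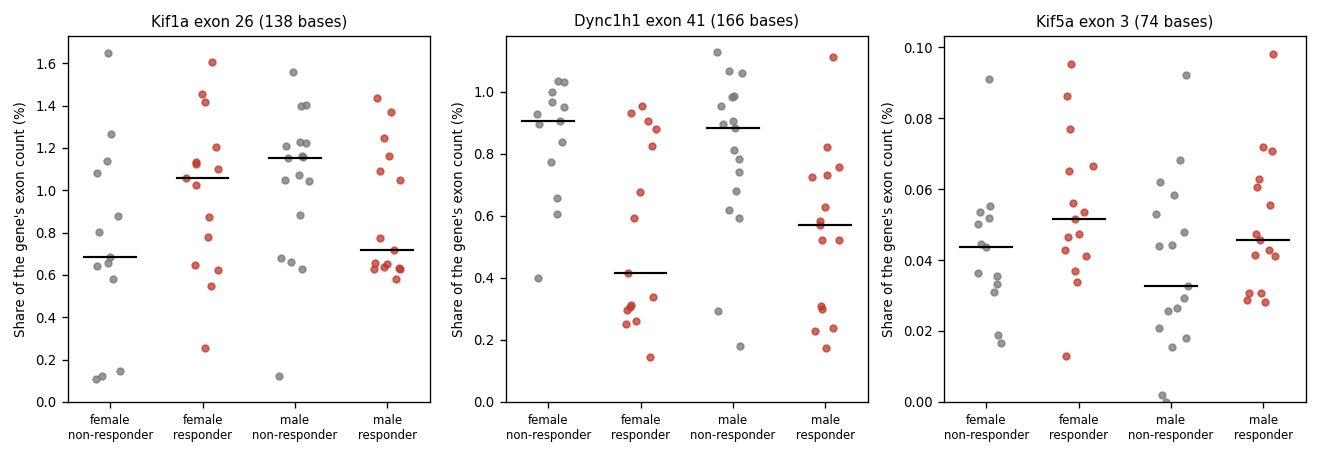
Share of the gene's exon count, in percent, taken by exon 26 of Kif1a, exon 41 of Dync1h1 and exon 3 of Kif5a, by sex and phenotype. Each point is 1 mouse and black lines are medians. In Dync1h1 the shares leave a gap between 0.414 and 0.522%, in Kif1a 5 mice lie at 0.256% or below, and in Kif5a the groups overlap.

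Other rows also had a wide range. Exon 5 of Mapt-203, a coding exon of 759 bases present in 1 of 8 coding transcripts, took 0.114 to 2.33% of the exon count with a median of 0.665%. A row of Map2 that starts at 66448018 in NCBI m37 on chromosome 1, matched to a coding exon of 78 bases, took 0.0095 to 1.25%. It was lowest in mice 63, 4, 5 and 62, with its widest gap, 1.02 on the log2 scale, above mice 63, 4 and 5. All shares above the 0.794% of mouse 40 came from mice 41 to 56, the run of shallow libraries with the lowest 3′ bias. Of that run, only mice 55, 41, 52 and 43 lay lower, at 0.706, 0.562, 0.558 and 0.539%. The separate parts of depth and 3′ bias in these shares were not tested. Over the whole exon vector, the mean cosine distance between mice, which grows as exon proportions differ, had a median of 0.00901 over the members and 0.00691 over the 8342 genes with 2 or more rows. It was largest for Dync2h1 (0.113, percentile 95.3), Dync1h1 (0.0595, percentile 92.3), Tubgcp2 (0.0484), Kif24 (0.0395) and Tubgcp5 (0.0354). Tubgcp2, Kif24 and Tubgcp5 averaged only 480, 51.7 and 590 counts, spread over 18, 18 and 23 rows. The levels of Dync2h1 and Dync1h1 had r = -0.805 and -0.704 with the 3′ bias of the library. The part of counting noise and of 3′ bias in these distances was not tested.

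Over mice, levels of some partners moved together and others did not. Of 11 pairs listed by known partnership 6 could be computed. No background of other gene pairs was set beside them, so the values are not shown to be particular to partners. Dync1h1 reached r = 0.9747 with Clasp1, which was not in the listed pairs. Dync1h1 and Dctn1, motor and cofactor, had r = 0.847 and rho = 0.886 over 60 mice (adjusted permutation p = 2e-05 for both, the smallest the test can give, two-sided, Benjamini-Hochberg over 6 pairs). Without the 2 mice farthest from the median of Dync1h1 r was 0.820, and r was 0.887 in the 43 mice over and 0.943 in the 17 mice under 10000000 reads. Kif3a and Kif3b had r = 0.651 and rho = 0.632 (adjusted permutation p = 2e-05, from the same smallest value), 0.574 without the 2 farthest mice, and 0.685 and 0.574 within the depth classes. Map1a and Map1b had r = 0.841 and rho = 0.670 (adjusted permutation p = 2e-05, from the same smallest value), 0.767 without the 2 farthest mice, and 0.866 and 0.801 within the depth classes. Without mice 63, 5, 4 and 62 r was 0.622 for Map1a and Map1b, 0.865 for Dync1h1 and Dctn1 and 0.5985 for Kif3a and Kif3b.

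Kif5a and Klc1, heavy and light chain of conventional kinesin, moved in opposite directions. Their r was -0.341 and rho -0.312 (adjusted permutation p = 0.0116 and 0.0228), and r was -0.323 without the 2 farthest mice. Within depth classes r was -0.434 over and -0.425 under 10000000 reads, the latter not passing in 17 mice (adjusted permutation p = 0.108). For Dync1h1 and Dync1i2 r was 0.071 and rho 0.214 (adjusted permutation p = 0.604 and 0.12), with 0.221 without the 2 farthest mice and 0.108 and 0.532 within the depth classes. For Map2 and Mapt r was 0.068 and rho -0.028 (adjusted permutation p = 0.604 and 0.828), with -0.105 without the 2 farthest mice and 0.136 and -0.175 within the depth classes.

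The striatum was dissected by hand, and Tbr1, a transcription factor of cortical projection neurons, ran from 219 to 3089 with a median of 1450 over the mice. Its log2 level was related to 32 of the 51 members past an adjusted permutation p of 0.05, 28 positively and 4 negatively (two-sided, Benjamini-Hochberg over 153 relations computed). This measure was chosen after seeing the data. All 32 kept their sign without mice 27 and 56, the 2 farthest from the median, and in both depth classes. The strongest were Klc2 (r = 0.755, rho = 0.807), Klc1 (0.745, 0.761), Map6 (0.728, 0.818), Tuba4a (0.699, 0.770), Dync1i1 (0.670, 0.721) and Mapt (0.663, 0.756). Each had an adjusted permutation p of 4.25e-05 for r, from the smallest value that the resamples can give before adjustment. Without mice 27 and 56 r was 0.810 for Klc2 and 0.819 for Map6, and over and under 10000000 reads it was 0.787 and 0.689 for Klc2 and 0.799 and 0.614 for Map6. The negative ones were Kif1c (-0.493), Kif5b (-0.428), Kif13a (-0.413) and Dync2li1 (-0.298). An r above 0.5 was found for 16 members (31.4%) and for 9.74% of the 8535 genes.

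Both genes of the pairs that moved together were also related to Tbr1. Its r was 0.439 with Dync1h1 and 0.496 with Dctn1, 0.346 with Kif3a and 0.592 with Kif3b, and 0.417 with Map1a and 0.473 with Map1b. Of the pair that moved in opposite directions, Klc1 had r = 0.745 and Kif5a -0.120. With the 3′ bias of the library, r was -0.704 for Dync1h1 and -0.353 for Dctn1, and -0.282 for Kif3a and -0.507 for Kif3b. It was -0.760 for Map1a and -0.778 for Map1b, and 0.2135 for Klc1 and 0.0054 for Kif5a. The part of Tbr1, of cortical tissue in the dissections or of 3′ bias in the pair correlations was not tested.

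The 3′ bias of the library was related to 31 of the 51 members past an adjusted permutation p of 0.05, 8 positively and 23 negatively (two-sided, Benjamini-Hochberg over 102 relations computed, of which these 51 are reported). These relations were chosen after the values were seen. Over all 8535 genes r was below -0.5 in 24.1% and above 0.5 in 22.4%, and among the members in 16 and 4 genes. The dynactin subunits Dctn3 (r = 0.849, rho = 0.474) and Dctn6 (0.680, 0.470) and the ciliary chain Dync2li1 (0.635, 0.360) were higher in libraries of stronger bias, and Tubgcp6 (-0.851, -0.549), Kif26b (-0.841, -0.748), Tubgcp4 (-0.839, -0.667), Dync2h1 (-0.805, -0.760) and Map1b (-0.778, -0.50) lower. All 8 had an adjusted permutation p of 3.92e-05 for r, from the smallest value that the resamples can give before adjustment. Across the 51 genes these r values fell with annotated exon length (Spearman rho = -0.744, genes not being independent). Part of the relation rested on few mice. Without mice 5 and 63, the 2 farthest from the median, r was 0.674 for Dctn3, -0.854 for Kif26b and -0.666 for Map1b, and without mice 63, 5, 4 and 62 it was -0.0325 for Kif1a and -0.131 for Map1a, from -0.610 and -0.760. In the 17 mice under 10000000 reads, which include none of these 4, r was 0.176 for Dctn3, -0.347 for Kif26b and -0.281 for Map1b.

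**Figure D5:**
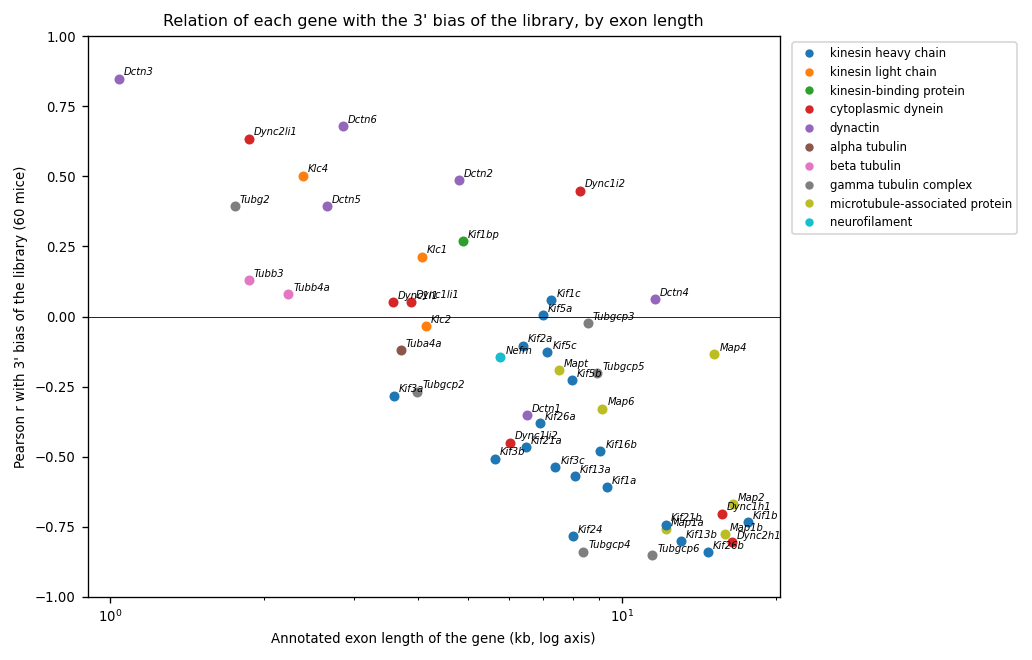
Pearson r of each member with the 3′ bias of the library over 60 mice, against the annotated exon length of the gene on a log axis. Each point is 1 gene and colour marks the family. The values fall with length, from Dctn3 at 0.849 to Tubgcp6 at -0.851.

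Of all genes averaging at least 10, those most like Nefm by Pearson r over 60 mice were Cadps (0.838), Epb41l3 (0.833) and B4galt5 (0.831). Those most like Dync1h1 were Clasp1 (0.9747), Celsr2 (0.974) and Hcfc1 (0.973), and those most like Tubb4a were Slc45a1 (0.927), Clstn1 (0.908) and Atp6v0a1 (0.908). Clasp1 is itself a microtubule plus-end protein. These are descriptions of 1 set of libraries, which share depth and 3′ bias, and without mouse 63 the values moved by less than 0.01.

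Network position was computed as in the study, from connectivity in a coexpression network of gene values, a cosplicing network of cosine distances between exon vectors and a CoSplicEx network of Canberra distances. The top 10% of connectivity held 907 genes. It included 5 of the 51 members by coexpression, 13 when genes were linked by cosplicing and 11 when linked by CoSplicEx, with ranges of 6 to 7, 12 to 15 and 11 to 12 when 6 mice at a time were left out. The median percentile of the members was 58.3, 76.6 and 69.9. Without mice 63, 5, 4 and 62 the counts were 14, 10 and 8. No test was made of these counts.

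Dync1h1 had the highest coexpression connectivity of the members, at percentile 99, followed by Map1b (98.3), Kif1b (95.2), Dync2h1 (95.1) and Kif3c (93.0). In the cosplicing network the order was Kif1a (98.3), Map1b (98.2), Kif3c (98.0), Kif5c (97.9) and Dctn1 (96.9), and in the CoSplicEx network Kif1b (99.3), Kif21b (97.6), Kif1a (97.2), Dync2h1 (96.8) and Map1a (96.3). Kif1a was thus near the top in both exon-based networks and at percentile 56.4 in coexpression. Its mean cosine distance between mice was low, at percentile 16.9, and its last row took from 51.8 to 83.2% of the exon count. The top 20% of coexpression, cosplicing and CoSplicEx held 12, 22 and 22 members. Without mice 63, 5, 4 and 62 it held 22, 14 and 20. The place of Kif1a without those mice is not given here. Kif5a was at percentile 95.8 in cosplicing and 32.3 in coexpression, the latter rising to 59 without mouse 63. The lowest in coexpression were Tubgcp3 (0.530), Tubgcp5 (1.58) and Kif26a (2.5). Tubg2 was at percentile 1.41 in the CoSplicEx network.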

How the data were processed

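The study sequenced polyA RNA of hand-dissected striatum, with 1 library for each of 60 HS-CC mice. Gene values deposited by the authors are a signal, namely reads scaled with upper quartile factors, and whole reads could be recovered from them to within 6.81e-05. Exon values deposited by the authors are a score, scaled counts rounded to whole numbers. Per the labels, Bowtie 0.12.7 aligned the reads to mm9 (NCBI m37) and edgeR 3.4.2 gave the factors. Errors were estimated over mice, not from counting.

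Genes with a mean of 10 or more were tested with limma 3.58.1 (trend, R 4.3.3) after log2(value + 1), fitting phenotype and sex, and exon rows with limma diffSplice. edgeR 4.0.16 and DESeq2 1.42.0 on recovered reads were alternatives. Scripts were tested on simulated data. Permutation tests were two-sided with 100000 resamples in scipy 1.17.1. Network adjacency raised absolute correlations to the power of 6. The 3′ bias was the slope of log2 exon values along 5209 genes. GENCODE M21 named the genes, except 208 identifiers, and 1058 of 1080 member exon rows (98.0%) matched its exons. Depth classes were split at 10000000 reads. Genes named were those past a threshold, those of smallest p, highest level, spread, usage or connectivity, and a list of common motors and cytoskeletal genes. Members and lists were chosen with earlier results of these data known. Relations with 1 further measure are not reported here.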

Additional observations from a re-analysis of the deposited data

How the results depend on the processing

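In the responder comparison the count of members past the threshold stayed at 0 in all gene-level alternatives except the fit with a 3′ bias term, where it was 1 (Dctn5). Leaving out each mouse in turn gave from 0 to 0 members, and from 7 to 14 genes in all. Over all genes the count was 9, and it was 23 with DESeq2, 20 with a depth term, 58 with a 3′ bias term, 5 among genes averaging at least 500, 3 in the 43 deeper mice and 0 in the 17 shallower ones, the last chosen after seeing the data. In the sex and interaction comparisons no alternative called a member, from 0 to 0 when single mice were left out, and in the sex comparison 3 genes became 0 in the deeper and 1 in the shallower mice.

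For exon usage the count of 1 member row became 0 with a pseudocount of 10 or on the log2 share. It was 0 of 400 at a minimum of 50, where the Kif5a row, averaging 26.9, was left out by the filter and not tested. The count was 2 without mouse 63 or with a 3′ bias term, and 3 without mice 63, 5, 4 and 62. Over all rows the count moved too, from 88 of 66690. It was 19 of 28488 at a minimum of 50, 57 of 66690 with a pseudocount of 10 and 15 of 66690 on the log2 share. Without mouse 63 it was 101 of 66861, with a 3′ bias term 177 of 66690, and without the 4 mice 137 of 67257. The correlation of Map2 with Mapt turned negative without mouse 63 (-0.023), in shallower mice (-0.175), in males (-0.030) and scaled by total reads (-0.204). That of Dync1h1 with Dync1i2 was -0.183 scaled by total reads and past the threshold in shallower mice (0.532). That of Kif5a with Klc1 no longer passed in shallower mice (-0.425) or males (-0.282). Members in the top 10% of coexpression numbered 14 without mice 63, 5, 4 and 62, and of CoSplicEx 7 among genes averaging at least 500. The cause of these changes was not tested. No paired analysis was made because each library came from a different mouse and the labels state no pairing.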
